A study of Mus musculus with 5 samples.

Results

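*Lingo1*, *Lingo2*, *Lingo3* and *Lingo4*, together with *Lrrtm1*, *Lrrtm2*, *Lrrtm3* and *Lrrtm4*, encode 2 families of neuronal surface proteins with leucine-rich repeats. They were chosen by name, as the gene rows whose Ensembl identifiers map to these symbols, and are 8 of the 55411 genes in the count tables. *Lingo2* was taken as the starting point because its counts were lower after odorant exposure in these same libraries, so its values are given as a description without a test, and the question asked was whether the other 7 genes share the decrease.

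The data are bulk RNA-seq counts of olfactory sensory neurons (OSNs) that transcribe the odorant receptor gene *Olfr151* (*M71*). All mice of both groups were male, 7 weeks old and homozygous for the Olfr151tm26Mom allele (*Olfr151* GFP/GFP), which drives GFP from the *Olfr151* locus, and GFP-positive cells were sorted from the main olfactory epithelium. The exposed group received 5% acetophenone, an agonist of the receptor, in DMSO for 5 h, and the control group received DMSO alone for the same time. Each library holds the RNA of a pool of 4 mice, and control pools 1, 2 and 3 and exposed pools 1 and 3 were analysed. The labels of each sample and the study's methods give 200 sorted cells per pool for this line, while a protocol field of the labels gives 400. The mice carry the reporter in every cell, but only neurons that have chosen *Olfr151* fluoresce.

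LINGO proteins carry leucine-rich repeats and an immunoglobulin-like domain on their extracellular side. LINGO1 is best known as a co-receptor of the Nogo receptor complex, which restrains axon growth and myelination, while LINGO2 and the other two paralogs are less well described. LRRTM proteins are postsynaptic organisers that bind presynaptic partners, heparan sulfate proteoglycans among them, across the synaptic cleft. OSNs extend an axon to the olfactory bulb and keep surface proteins of both the axon and the dendrite, so that RNA of either family could in principle be present.

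*Lingo1* (ENSMUSG00000049556) lies at chr9:56618475-56796468 on the minus strand of GRCm38, with 4715 exon bases in the tables. *Lingo2* (ENSMUSG00000045083) lies at chr4:35706647-36951747 on the minus strand, with 8297 exon bases. The 300 bases around their RefSeq transcription starts are shown because these are the only members with abundant RNA in the sorted neurons, and because these start regions differ in base composition. Each window ends 50 bases after a start, is written 5′ to 3′ on the strand of the gene and comes from RefSeq on GRCm38.p6, with CpG dinucleotides in capitals. The *Lingo1* windows are chr9:56796261-56796560 (start 1) and chr9:56635599-56635898 (start 2), and the *Lingo2* windows are chr4:36718914-36719213 (start 1) and chr4:35845155-35845454 (start 2), all on the minus strand.
Lingo1 start 1: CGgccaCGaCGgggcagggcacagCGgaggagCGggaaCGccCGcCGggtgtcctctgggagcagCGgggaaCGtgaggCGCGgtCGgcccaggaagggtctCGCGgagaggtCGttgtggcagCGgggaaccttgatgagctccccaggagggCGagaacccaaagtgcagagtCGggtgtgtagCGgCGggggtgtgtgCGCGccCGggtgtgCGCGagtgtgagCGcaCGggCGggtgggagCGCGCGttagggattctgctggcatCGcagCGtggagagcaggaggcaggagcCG
Lingo1 start 2: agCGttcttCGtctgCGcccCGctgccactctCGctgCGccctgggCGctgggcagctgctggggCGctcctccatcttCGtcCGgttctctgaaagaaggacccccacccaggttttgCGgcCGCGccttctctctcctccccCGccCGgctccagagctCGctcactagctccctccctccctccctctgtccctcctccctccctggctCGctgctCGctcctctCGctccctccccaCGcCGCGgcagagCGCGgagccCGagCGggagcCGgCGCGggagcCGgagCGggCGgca
Lingo2 start 1: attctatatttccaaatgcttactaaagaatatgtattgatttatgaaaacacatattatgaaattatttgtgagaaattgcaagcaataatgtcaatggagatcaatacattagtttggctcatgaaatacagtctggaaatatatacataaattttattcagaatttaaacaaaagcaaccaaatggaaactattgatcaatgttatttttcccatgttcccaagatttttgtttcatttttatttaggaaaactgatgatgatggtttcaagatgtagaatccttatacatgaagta
Lingo2 start 2: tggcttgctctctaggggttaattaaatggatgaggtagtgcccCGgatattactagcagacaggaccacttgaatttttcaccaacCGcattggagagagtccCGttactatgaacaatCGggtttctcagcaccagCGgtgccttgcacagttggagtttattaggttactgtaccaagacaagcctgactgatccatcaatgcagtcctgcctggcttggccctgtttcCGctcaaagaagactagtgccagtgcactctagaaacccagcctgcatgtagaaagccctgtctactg

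The *Lingo1* windows were CpG-rich, with 35 and 32 CpG dinucleotides and GC contents of 71.3% and 72.7%. The *Lingo2* windows held 0 and 6 CpG dinucleotides at GC contents of 26.3% and 49.3%. The median over the 32851 RefSeq windows of the same length was 7 CpG dinucleotides at 52.7% GC, so that both *Lingo1* windows were above it and both *Lingo2* windows below. The annotation used for counting extends *Lingo2* further upstream, to chr4:36951747, and no window covered that end. Windows were matched for 7 of the 8 genes. Both *Lingo3* windows were also CpG-rich, with 35 and 28 CpG dinucleotides. The cyclic AMP response element TGACGTCA (on either strand, in 1.79% of all windows), the AP-1 motif TGANTCA (7.81%) and the EBF-type motif CCCNNGGG (13.7%) were searched for, and none of these letters occurred in the *Lingo1* and *Lingo2* windows. The counts do not tell which start the neurons use.

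Library totals lay between 42780403 and 49527380 counts, of which 0.249% to 0.631% came from spike-in RNA. Levels are given as CPM, counts scaled to the TMM-adjusted library size, or as TPM, which also divides by exon length and allows different genes to be compared. In these libraries 3 counts correspond to 0.0607 to 0.0718 CPM. At 95% confidence this is the highest level that a count of 0 leaves possible, and it covers counting error only. A gene was called where edgeR gave an adjusted p under 0.1 together with a log2 fold change beyond 0.5 in size. Summed CPM of 8 mature OSN markers was 57094 to 60667 in the control pools and 48677 to 49604 in the exposed pools, and 3 of the 8 (*Cnga2*, *Cnga4* and *Rtp1*) were called lower, as were 1.85% of all tested genes. Immature OSN markers summed to 536 to 590 CPM in the control pools and to 593 and 504 CPM in exposed pools 1 and 3, but their members went apart. *Gap43* was called higher (log2 fold change 0.94) and *Stmn4* lower (-1.01), while *Gng8* (1.13), *Dpysl3* (1.31) and *Dcx* (-0.90) were not called. The sums of sustentacular (62.8 to 245 CPM over all pools), myeloid (15.1 to 124 CPM), basal (0.414 to 3.83 CPM) and ensheathing glia markers (1.12 to 4.98 CPM) overlapped between the groups. Among the genes of these sums, only *Ermn* (sustentacular, untested) and *Tyrobp* (myeloid, not called) did not overlap. Both were above all control pools after exposure, as were 20.3% of the tested genes. The part of the mature and immature OSN markers in the results on *Lingo1* and *Lingo2* was not tested.

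*Lingo1* and *Lingo2* accounted for nearly all RNA of the 8 genes, at 98.2% to 99.9% of their summed counts in every library. *Lingo1* had the higher level per length, with 276 ± 59.4 TPM (SD, n = 3) in the control pools, and 5.51% of the 10055 genes tested had a higher control TPM. *Lingo2* stood at 86.9 ± 14.5 TPM (SD, n = 3), with 19.2% of the tested genes above it. *Lingo3* had a control mean of 4.13 ± 3.67 TPM (SD, n = 3). The TPM ranges of *Lingo1*, *Lingo2* and *Lingo3* over the control pools did not overlap, whereas those of *Lingo3* (0.738 to 8.03 TPM) and *Lrrtm1* (0 to 1.19 TPM) did. The control ranges of *Lrrtm2*, *Lrrtm3* and *Lrrtm4* lay under that of *Lingo3*, those of the 4 *Lrrtm* genes overlapped one another, and *Lingo4* had no counts at all.

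**Figure D1:**
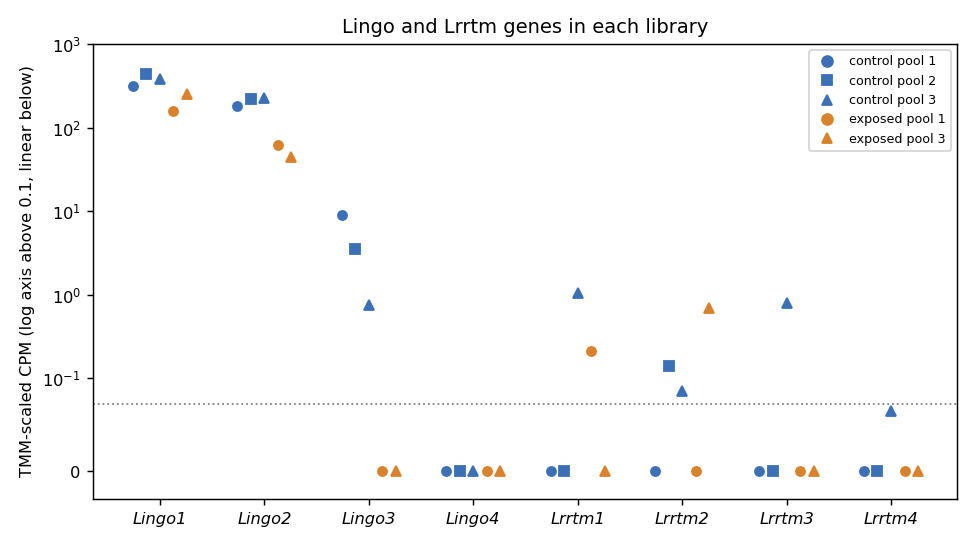
TMM-scaled CPM of the 8 genes (x axis) in each library, on an axis that is logarithmic above 0.1 and linear below, with control pools in blue, exposed pools in orange and the pool number as the marker shape. The dotted line is the highest CPM that 3 counts correspond to (0.0718). *Lingo1* and *Lingo2* lie between 44.4 and 433 CPM in every library, and *Lingo3* is above the line in the control pools only. *Lrrtm1* is above the line in control pool 3 and exposed pool 1, and *Lrrtm3* in control pool 3. *Lrrtm2* is above it in control pools 2 and 3 and exposed pool 3. In control pool 3, *Lrrtm1* and *Lrrtm3* lie above *Lingo3*. *Lingo4* and *Lrrtm4* are under the line in every library.

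*Lingo2* was at 25.4% of its control mean after exposure, which is the observation it was chosen for. Its counts were 7865, 10785 and 10522 in control pools 1 to 3 and 2648 and 1857 in exposed pools 1 and 3. On the CPM scale these are 181, 218 and 228 in the controls against 61.7 and 44.4 after exposure. Both exposed pools were far under the lowest control pool, at 29.5% and 21.3% of the control mean. The log2 fold change of the fit was -1.98 with a standard error of 0.22, and 205 of the tested genes (2.04%) had a log2 fold change at or under it. This standard error was derived from the F statistic of the fit, so it too is only a description here. In pooled cells, fewer cells with the RNA and less RNA per cell cannot be told apart, here and for every gene that follows.

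*Lingo1*, the Nogo receptor co-receptor, was also lower in both exposed pools, but by less, and was not called by edgeR. It was the one gene besides *Lingo2* with enough counts to be tested. Its counts were 13685, 21405 and 17541 in the control pools and 6794 and 10500 in exposed pools 1 and 3, or 315, 433 and 379 CPM against 158 and 251 CPM. The groups did not overlap, and the exposed pools stood at 42.1% and 66.8% of the control mean. The log2 fold change was -0.88 with a standard error of 0.24 and an adjusted p of 0.122 by the quasi-likelihood test of edgeR, adjusted after Benjamini and Hochberg over all genes tested. The 0.1 needed for a call was thus missed, and 1.85% of the tested genes were called lower. Under the Wald test of DESeq2, by which 7.65% of the tested genes were called lower, *Lingo1* was among them at a log2 fold change of -0.86 and an adjusted p of 0.0161, and over all alternatives its adjusted p lay between this value and 1.

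The separation of the groups is a weak criterion with so few pools. Both exposed pools lay under all control pools for 19.6% of the tested genes and above all of them for 20.3%. A log2 fold change at or under that of *Lingo1* was found for 1091 genes (10.9%), and 942 genes (9.37%) had a log2 fold change under -0.5 with an unadjusted p under 0.05, as did *Lingo1* with an unadjusted p of 0.00832 in edgeR's quasi-likelihood test. Values like those of *Lingo1* were thus common among the tested genes.

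**Figure D2:**
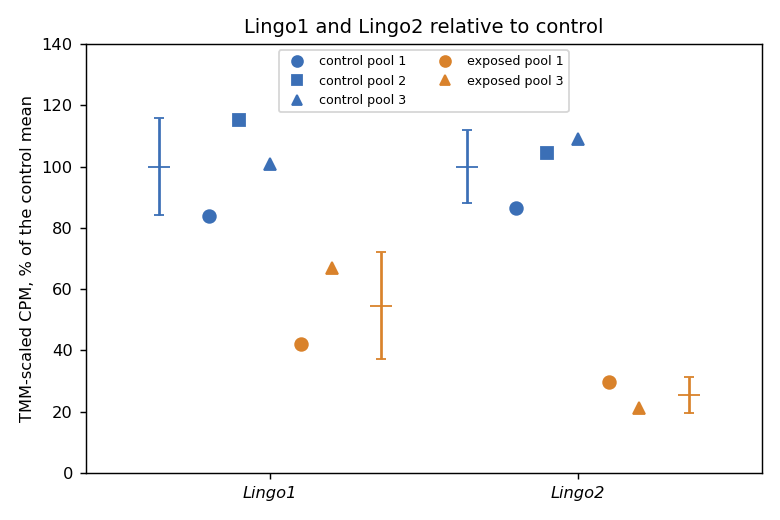
CPM of *Lingo1* and *Lingo2* in each library as a percentage of the control mean of the same gene (y axis from 0), with control pools in blue and exposed pools in orange; the bars beside the points are the mean and SD of each group (n = 3 and n = 2). The exposed pools sit at 42.1% and 66.8% for *Lingo1* and at 29.5% and 21.3% for *Lingo2*, under every control pool of the same gene.

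The ratio between these paralogs was higher in both exposed pools. The ratio of *Lingo1* to *Lingo2* on the TPM scale was 3.06, 3.49 and 2.93 in the control pools and 4.51 and 9.95 in exposed pools 1 and 3. Its mean was 3.16 ± 0.293 (SD, n = 3) in the controls and 7.23 ± 3.84 (SD, n = 2) after exposure. Both exposed ratios were above all control ratios, but they differed more from each other than the control ratios did. Exposed pool 1 had the lower *Lingo1* and exposed pool 3 the lower *Lingo2*, so that these genes did not rank the exposed pools alike. Because *Lingo2* was chosen for its decrease, this ratio is given without a test.

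*Lingo3* (ENSMUSG00000051067, chr10:80832801-80844039, minus strand, 3559 exon bases) was a low-level gene seen only in control pools. It had 386, 175 and 35 counts in control pools 1 to 3 and 0 counts in both exposed pools, or 8.88, 3.54 and 0.757 CPM against 0. The control pools thus spanned a wide range while neither exposed pool had a read. The limit taken was 3 counts in each exposed library, which holds at 95% confidence per library and for counting error only. Under it, the mean exposed level was at least 62.0-fold lower than the control mean. That level was at least 30.3-fold lower without control pool 1, and at least 10.7-fold lower than the lowest control pool. *Lingo3* missed the minimum of 140 counts in every library of a group because of control pool 3 and was not tested.

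The level of *Lingo3* followed the same order over the control pools as the red blood cell markers. The summed CPM of 3 such markers (*Hbb-bs*, *Hba-a1* and *Alas2*) was 297, 95.4 and 11.2 in control pools 1 to 3 and 12.3 and 5.60 in exposed pools 1 and 3. *Hbb-bs*, a beta globin gene, had 9667, 3372 and 385 counts in the control pools and 428 and 155 in the exposed pools. Control pool 3, with 35 counts of *Lingo3*, and exposed pool 1, with 0, had marker sums of 11.2 and 12.3 CPM. The sustentacular sum fell in the same order, with 234, 146 and 62.8 CPM in control pools 1 to 3. It was 245 and 95.5 CPM in exposed pools 1 and 3. The myeloid sum did so too, at 124, 17.6 and 15.1 CPM, with 99.1 and 32.2 CPM in exposed pools 1 and 3. The basal and ensheathing glia sums did not take this order. The part of any of these cell types in the difference was not tested.

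**Figure D3:**
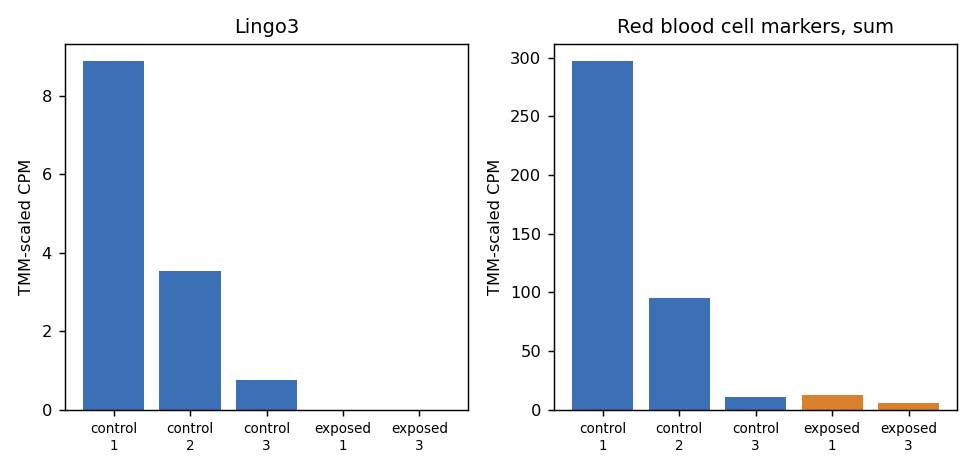
TMM-scaled CPM of *Lingo3* (left) and summed CPM of 3 red blood cell markers (right) in each library, with bars from 0, control pools in blue and exposed pools in orange. *Lingo3* steps from 8.88 to 0.757 CPM over control pools 1 to 3 and is 0 in both exposed pools, and the marker sum takes the same order over the control pools and is 12.3 and 5.60 CPM in the exposed pools.

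*Lingo4* (ENSMUSG00000044505, chr3:94398517-94404501, plus strand, 3645 exon bases) had 0 counts in all 5 libraries, so any level was at most 0.0718 CPM at 95% confidence. Of the other *Lingo* genes, *Lingo1* and the untested *Lingo3* had both exposed values under all control values, as did 19.6% of the tested genes, and *Lingo4* gave no values to compare. In the longest GENCODE transcript of each gene, which covers 3627 of the 4715 exon bases of *Lingo1* and 3808 of the 8297 of *Lingo2*, no 50-base stretch was shared with another of the 8 genes. For *Lingo1*, *Lingo2* and *Lingo3*, none was found in a transcript of any other gene either, and the remaining exon bases were not searched. The 6 small genes that lie in *Lingo2* introns share no exon base with it and had at most 7 counts in a library.

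The *Lrrtm* genes were close to absent in these neurons. *Lrrtm1* (ENSMUSG00000060780, chr6:77242689-77257791, plus strand) had 0, 0 and 48 counts in the control pools and 9 and 0 in exposed pools 1 and 3. *Lrrtm2* (ENSMUSG00000071862, chr18:35209003-35215024, minus strand) had 0, 7 and 4 counts against 0 and 29. *Lrrtm3* (ENSMUSG00000042846, chr10:63928472-64090277, minus strand) had counts only in control pool 3, where there were 37.
*Lrrtm4* (ENSMUSG00000052581, chr6:80018877-80810143, plus strand) likewise had 3 counts in control pool 3 and 0 elsewhere. The family thus added up to 0, 7 and 92 counts in the control pools and to 9 and 29 in the exposed pools, and the groups overlapped. Control pool 3 thus held nearly all control counts of the family. None of the 4 could be tested, and no difference between the groups was detectable at this depth. With no minimum count, their adjusted p ran from 0.607 to 0.861 in edgeR's quasi-likelihood test.

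Of the 4 *Lrrtm* genes, 3 sit inside alpha-catenin genes on the opposite strand, and counting did not use the strand. *Lrrtm1* lies in *Ctnna2*, *Lrrtm2* in *Ctnna1* and *Lrrtm3* in *Ctnna3*; alpha-catenins link cadherins to the actin cytoskeleton. *Ctnna2*, the neuronal form, had 3137, 3831 and 4135 counts in the control pools and 3628 and 4807 in the exposed pools, with overlapping groups, a log2 fold change of 0.32 and an adjusted p of 0.465 by edgeR's quasi-likelihood test. *Ctnna1* had 10442, 10990 and 11499 counts against 14433 and 16230 and was called higher, with a log2 fold change of 0.61, a standard error of 0.14 and an adjusted p of 0.08 by the same test, where 3.42% of tested genes were called higher.
*Ctnna3* had 0 counts in every library. *Lrrtm1* and *Lrrtm3* share no exon base with their host genes, and *Lrrtm2* shares 95 with *Ctnna1*, where reads were counted for neither gene. Reads from unspliced host RNA over *Lrrtm* exons cannot be told apart from reads of the *Lrrtm* genes. *Lrrtm4* shares 1543 exon bases with *Gm4409*, which had 0 counts, and 34.1% of the 50-base stretches of its longest transcript also occur in other genes. *Ctnna1* and *Ctnna2* were thus abundant while the *Lrrtm* genes inside them were near 0.

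Other neuronal surface proteins with leucine-rich repeats mostly had too few counts to be tested, and those called went in both directions. Of 42 listed genes, 18 had at most 3 counts in every library and 9 could be tested. Of these 9, 3 were called lower, 1 was called higher and 5 were not called, where 1.85% of all tested genes were called lower and 3.42% higher. Their median log2 fold change was -0.77 against -0.03 over all genes tested. The list was drawn up with earlier results of these data known and is given by its counts alone.

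*Lrrn2*, a neuronal leucine-rich repeat protein, had 20.4, 25.6 and 17.9 CPM in the control pools and 5.67 and 5.57 CPM in exposed pools 1 and 3, with a log2 fold change of -1.92, a standard error of 0.37 and an adjusted p of 0.0493 by edgeR's quasi-likelihood test. This is close in size to *Lingo2*, at a lower level. Its paralog *Lrrn1*, at 780 TPM in the controls the second most abundant of the list, had 757, 958 and 790 CPM against 386 and 536 CPM, with a log2 fold change of -0.86 and an adjusted p of 0.0729. *Flrt1*, which encodes a ligand of latrophilins and of netrin receptors of the Unc5 family, had 409, 344 and 266 CPM against 176 and 187 CPM, with a log2 fold change of -0.90 and an adjusted p of 0.0775. The log2 fold changes of *Lrrn1* and *Flrt1* were near that of *Lingo1*, with smaller standard errors (0.19 and 0.21), and these genes passed the threshold.

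*Lrrc3b* was the gene called higher and the most abundant gene of the list, at 877 TPM in the controls. It had 534, 538 and 477 CPM in the control pools and 1004 and 1047 CPM in the exposed pools, with a log2 fold change of 0.99, a standard error of 0.12 and an adjusted p of 0.0103 by edgeR's quasi-likelihood test. The means were 517 ± 34.5 CPM (SD, n = 3) and 1026 ± 30.4 CPM (SD, n = 2), with little spread in either group. *Lrig2*, chosen after its values were seen, had 14.1, 18.2 and 35.2 CPM against 42.2 and 44.5 CPM, with a log2 fold change of 0.95, and was not called at an adjusted p of 0.277 in edgeR. Among the untested genes, *Amigo3*, chosen after its values were seen, had a pattern like that of *Lingo3*, with 293, 140 and 29 counts in control pools 1 to 3 and 0 and 5 in exposed pools 1 and 3. The lower calls were not stable to the loss of a library. Leaving out exposed pool 1, exposed pool 3 or control pool 2 ended all 3, leaving out control pool 1 ended that of *Flrt1*, and *Lrrc3b* lost its call without exposed pool 1.

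**Figure D4:**
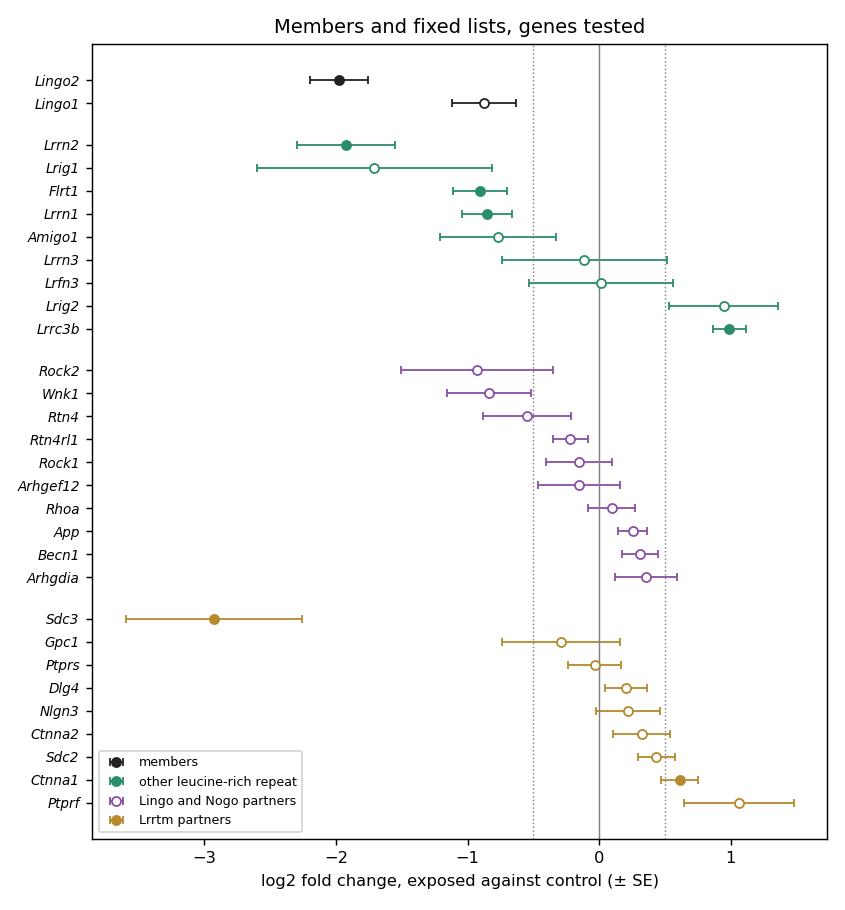
Log2 fold change of exposed against control with its standard error (x axis) for tested genes among the 8 and from the lists of other leucine-rich repeat proteins, Lingo and Nogo receptor partners and Lrrtm partners; filled points were called, and dotted lines mark an absolute value of 0.5. *Lingo2*, chosen for its decrease, is at -1.98 and *Lingo1* at -0.88, *Lrrn2*, *Lrrn1* and *Flrt1* are called lower, and the Lingo and Nogo receptor partners scatter around 0 without a call. The point of *Lingo2* is drawn filled as well, but given how the gene was chosen, this is a description and not a test.

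Tested genes from the list of Lingo and Nogo receptor partners, which is wider than the Nogo receptor complex, showed no call. Of 18 listed partners, 10 were tested and 0 were called by edgeR or by DESeq2. Over all tested genes edgeR called 1.85% lower and 3.42% higher. The Wald test of DESeq2 called 7.65% (769 genes) lower and 725 genes higher. At these shares, 0 calls among 10 genes says little about the partners. *Wnk1*, a kinase that binds LINGO1, was the 1 partner with an unadjusted p under 0.05, as had 1924 of the 10055 tested genes. Its log2 fold change was -0.84, with an adjusted p of 0.223 by edgeR's quasi-likelihood test. The median log2 fold change of the 10 partners was -0.15. The classical ligand-binding Nogo receptor *Rtn4r* was nearly absent, with 3, 24 and 40 counts in the control pools and 0 in both exposed pools, and the related receptor *Rtn4rl2* and the ligand *Mag* had 0 counts in every library. The third receptor of this family, *Rtn4rl1*, was the one expressed, at a mean of 370 TPM in the controls beside 276 TPM for *Lingo1*.
It had 368, 392 and 376 CPM in the control pools and 305 and 344 CPM in exposed pools 1 and 3, with a log2 fold change of -0.22 and an adjusted p of 0.414 by edgeR's quasi-likelihood test. Both exposed pools lay under the controls, as for 19.6% of the tested genes, by a margin smaller than for *Lingo1*. *Ngfr*, the p75 co-receptor, had 14, 0 and 76 counts in the control pools and 0 in the exposed pools, and the myelin ligand *Omg* had at most 6 counts in a library. The amyloid precursor *App* (log2 fold change 0.25, adjusted p 0.266) and the GDP dissociation inhibitor *Arhgdia* (0.36, adjusted p 0.455) were the other most abundant partners.

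Some of the genes listed as partners of LRRTM proteins were expressed even though the *Lrrtm* genes were close to absent, while 11 fell below the count filter. Of 21 listed genes, 10 were tested, 1 was called lower and 1 higher, against 1.85% and 3.42% of all tested genes, and their median log2 fold change was 0.21. *Ptprs*, a receptor phosphatase that binds heparan sulfate, had overlapping groups at 1068, 1223 and 1680 CPM in the control pools and 1199 and 1383 CPM in exposed pools 1 and 3, with a log2 fold change of -0.04. The higher call was that of *Ctnna1*, listed as a host gene.
The lower call was that of *Sdc3*, a heparan sulfate proteoglycan of the syndecan family, with 1316, 1455 and 322 CPM in the control pools and 111 and 160 CPM in exposed pools 1 and 3. It had a log2 fold change of -2.93 with a standard error of 0.67 and an adjusted p of 0.0906 by edgeR's quasi-likelihood test. Control pool 3 was much closer to the exposed pools than to the other controls. The syndecan *Sdc2* was measured at 255, 254 and 287 CPM against 339 and 378 CPM and was not called, with a log2 fold change of 0.44 and an adjusted p of 0.166. *Sdc3* lost its call when control pool 1, control pool 2 or either exposed pool was left out, and *Ctnna1* lost it without any one of the 5 libraries.

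Genes with a profile over the 5 libraries most like that of *Lingo2* or *Lingo1* were found by the root mean square difference of mean-centred log2 CPM. For *Lingo2* these were *B3gnt8* (0.172), *Dennd2a* (0.194), *Rdm1* (0.200), *Mvk* (0.215) and *Gramd1c* (0.220), where the median over all other tested genes was 1.04. *B3gnt8*, a glycosyltransferase, had 3270, 4077 and 3995 counts in the control pools and 1338 and 876 in exposed pools 1 and 3, with a log2 fold change of -1.64. *Mvk*, the mevalonate kinase of sterol synthesis, had 3942, 4062 and 3319 counts against 1093 and 738.
For *Lingo1* they were *Plcb3* (0.0731), *Pcdhga3* (0.0743), *Cd276* (0.0772), *Tmem151a* (0.0856) and *Nemp1* (0.0869), where the median was 0.611. *Plcb3*, a phospholipase C, had 3086, 4657 and 3789 counts in the control pools and 1534 and 2063 in the exposed pools, and *Pcdhga3*, a clustered protocadherin, had 719, 1096 and 907 counts against 377 and 602. These genes share the highest control value in control pool 2 and the lowest exposed value in exposed pool 1 with *Lingo1*. The likeness is over 5 libraries in 2 groups and is a description of these libraries.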

How the data were processed

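RNA from pools of FAC-sorted *Olfr151* neurons was amplified with the SMARTer Ultra Low kit (12 cycles) and sequenced as 50-base reads. The authors mapped reads with STAR 2.7.0a on GRCm38 and deposited raw counts per gene from featureCounts 1.6.3, with exons summed, strand ignored, and multi-mapping and multi-overlap reads not counted, which lowers genes with near-identical copies. Samples were grouped by their labels. The 8 genes and all lists were chosen with earlier results of these data known. Of 55411 genes, 55144 were named; 267 were not. The 92 spike-in rows stayed outside library sizes and fits.

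The robust quasi-likelihood test of edgeR 4.0.16 (R 4.3.3) was fitted with condition as the only factor and TMM scaling. A gene was tested where all libraries of a condition reached 140 counts, the dip between the modes of log2 counts, which left 10055 genes. A call needed an adjusted p (Benjamini-Hochberg, all tested genes) under 0.1 and a log2 fold change beyond 0.5 in size. Standard errors are the size of the edgeR log2 fold change divided by the square root of its F statistic. The fit was tested on simulated data. DESeq2 1.42.0, spike-in scaling, other filters, a pool-number block and each library left out were alternatives. Likeness used log2(CPM + 0.5). In each list, called genes and the 3 highest in control TPM were named, together with genes overlapping a member and the 5 nearest profiles. Other list genes named (*Wnk1*, *Rtn4r*, *Rtn4rl2*, *Mag*, *Ngfr*, *Omg*, *Amigo3*, *Lrig2* and marker genes) were chosen after their values were seen. Exposed pool 2 was not analysed here, and 1 listed gene is not reported here.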

Additional observations from a re-analysis of the deposited data

How the results depend on the processing

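*Lingo1* kept its negative log2 fold change under all 14 alternatives and was called in 1 of them, the Wald test of DESeq2 (-0.86). It ran from -1.27 to -0.59 with a library left out. That of *Lingo2* ran from -2.25 to -1.78 with a library left out and was -2.29 with spike-in scaling, where the median of all tested genes was -0.23 against -0.03 with TMM. Of the other 7 genes, of which only *Lingo1* was tested, 0 were called lower in edgeR with TMM, 1 with the Wald test (*Lingo1*), 1 without a minimum count (*Lingo3*), and 0 to 1 with a library left out (*Lingo3* without control pool 3). *Lingo3* entered the last fit through its control pools alone, so that direction was fixed and supports nothing.

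Over all genes, 186 were called lower and 344 higher. The counts were 769 and 725 with the Wald test of DESeq2, 124 and 202 with its test against a fold change of 0.5, 49 and 94 with spike-in scaling, and 90 and 190 at an adjusted p under 0.05. With a library left out they ran from 19 to 429 lower and from 93 to 348 higher. With the pool number as a replicate block, 0 were lower and 11 higher, *Lingo1* had a log2 fold change of -0.79 and an adjusted p of 0.244 in edgeR, and none of the listed genes was called. Deviations of same-numbered pools correlated at 0.047 and -0.080, and with 2 exposed pools, whose deviations mirror each other, this says little. The labels spread the mice of both conditions over consecutive days but tie no pool to a day, so the numbers were not taken as pairs and a shared day was not tested.

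Of the other leucine-rich repeat genes, 3 lower became 1 with the DESeq2 test against 0.5, with at least 10 counts and at an adjusted p under 0.05, 0 with spike-in scaling, and 0 to 5 with a library left out, and 1 higher became 0 with spike-in scaling and 0 to 2 with a library left out. The lower Lrrtm partner *Sdc3* was called in 0 cases with at least 10 counts, without a minimum count and at an adjusted p under 0.05, and the higher *Ctnna1* in 0 cases with the DESeq2 test against 0.5, spike-in scaling, no minimum count and an adjusted p under 0.05; with a library left out these ran from 0 to 1 and stayed at 0. The cause was not tested. On the CPM scale the control ratio of *Lingo1* to *Lingo2* was 1.80 in place of 3.16. Without control pool 3, 4 genes took another place in the control order (0 to 4 with a library left out), since *Lrrtm2* was then the one *Lrrtm* gene with control counts. With 2 exposed pools, the spread within that group rests on 1 difference per gene.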
